A study of Rattus norvegicus with 2 samples.

Results

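The lipoxygenase pathway genes described here are 10 genes that make or sense oxygenated products of arachidonic acid: Alox15, Alox12, Alox5, Alox5ap, Lta4h, Ptgs1, Ptgs2, Ptgds, Ptgfr and Ephx1. They were chosen by gene name, and every probe set whose platform annotation gave that symbol alone was taken. Of the 10 genes, 9 had a probe set, with 15 probe sets in all out of 8740 non-control probe sets on the array. Alox12 had none. The heart tissue came from male Dahl salt-sensitive rats, a strain in which dietary salt raises blood pressure, aged 17 weeks. One array was hybridised with RNA of the high-salt diet, with chronic heart failure as its labelled condition, and 1 array with RNA of the low-salt diet, for which the labels name no disease. The number of animals behind each RNA and the chamber sampled are not in the labels, and diet and heart failure cannot be told apart in this design.

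Arachidonic acid is released from membrane phospholipids and oxygenated along separate branches. Lipoxygenases insert oxygen at a set carbon of the chain, and cyclooxygenases start the prostaglandins. A further branch through cytochrome P450 enzymes makes epoxides, which epoxide hydrolases open. Alox15 encodes 12/15-lipoxygenase, the enzyme in the title of the study; in rodents it makes mainly the 12-hydroperoxy product, and it is known from macrophages, eosinophils and maturing red cells of several mammals.

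Intensities were on the linear scale that the authors deposited, and 27.3% of the probe sets on each array were below 0. The noise level was the size that 95% of the values below 0 do not exceed, 126.4. A smaller value has no reliable level or order. It was reached by 1744 probe sets with high salt and by 1772 with low salt. Ratios of high salt over low salt were taken after values under it were raised to it, so a ratio with 1 value under it is a bound. Each diet had a single array, so no replicate spread and no p-value exist. A partial error comes from genes with several probe sets: their log2 ratios differed within a gene with an SD of 0.22 over 231 genes, which holds no variation between animals. As a check of the tissue, where 25.7% of all genes reached the noise level, 11 of 12 measured cardiomyocyte markers did. The other was Ryr2, the calcium release channel, at 85.5 with high salt and 98.7 with low salt. In whole tissue, fewer cells of a type and less RNA per cell cannot be told apart.

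Alox15 was the member with a large difference, and both of its probe sets showed it. S69383_at read 2433.7 with high salt and 25.9 with low salt. L06040_s_at read 2062.6 with high salt and -112.9 with low salt. Both high-salt values stood far above the noise level and both low-salt values under it, so the low-salt level is known only as a bound. By S69383_at, Alox15 RNA with high salt was at least 19.2-fold higher, and by L06040_s_at at least 16.3-fold higher. The corresponding log2 bounds were 4.27 and 4.03, and whether the probe sets give the same fold cannot be read from bounds.

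Where Alox15 ranked in the whole array depended on how its dim low-salt values were treated. Against a lower floor of 10.9, its probe sets ranked 1 and 2 by ratio among all 8740. Against the noise level they ranked 2 and 3. The highest belonged to Nppa, the atrial natriuretic peptide gene, whose probe set E00775cds_s_at read 7841 with high salt and 353.7 with low salt, a 22.2-fold difference measured above the noise level on both arrays. With each gene represented by its brightest probe set, Alox15 ranked 1 of 4736 genes. As intensity differences, the 2407.8 and 2175.5 of the Alox15 probe sets ranked 8 and 9. The 6785 probe sets under the noise level on both arrays differed between arrays by a median of 8.8 in size, with a 95th percentile of 51.7 and a maximum of 290.6. They hold low readings only, by the way they were picked, so their differences give no spread at the high-salt intensities of Alox15.

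The pattern of Alox15, under the noise level in low salt and above it in high salt, was held by 183 of 8740 probe sets. The reverse pattern was held by 211, of which 11 were at least 2-fold lower. Large bounds were few. Of the 183, 21 were at least 2-fold higher and 3 at least 10-fold higher. The 3 were those of Alox15 and the single probe set of Reg3b. By size of the bound, the 5 genes nearest to Alox15 were Reg3b, a secreted lectin, at least 10.3-fold higher, Alas2, which starts haem synthesis in developing red cells, at least 5.52-fold, Ivns1abp at least 5.31-fold, Akip1 at least 4.54-fold and S100a4, a calcium-binding protein, at least 3.65-fold. Of these, Akip1 had 4 probe sets, the lowest with a log2 ratio of 0, and the others had 1 each. The likeness rests on 2 arrays alone.

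**Figure D1:**
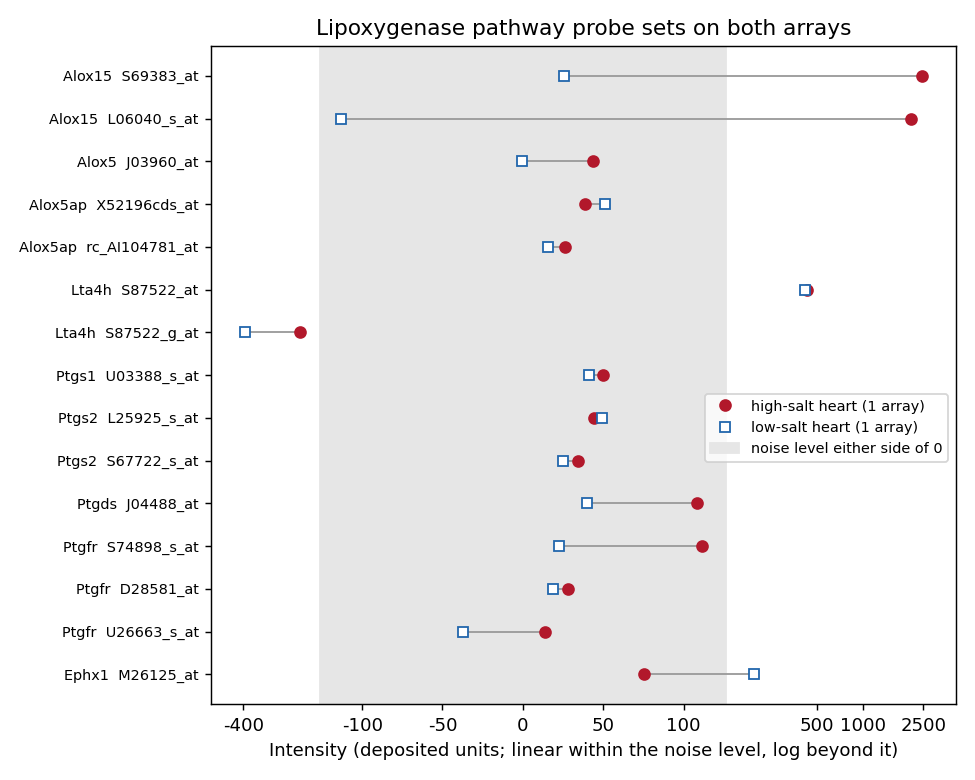
Deposited intensity of the 15 probe sets of 9 lipoxygenase pathway genes, in the high-salt heart (filled circles) and the low-salt heart (open squares), 1 array each; the axis is linear within the noise level of 126.4 (grey) and logarithmic beyond it. The Alox15 probe sets lie at 2433.7 and 2062.6 in the high-salt heart and within the grey band in the low-salt heart, and 10 of the other 13 probe sets lie within the band on both arrays.

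Of the 15 probe sets, 2 were at least 2-fold higher with high salt, both of Alox15, none was at least 2-fold lower, and 13 were neither. Over all probe sets, 0.789% were at least 2-fold higher and 0.378% at least 2-fold lower. The median log2 ratio was 0 over the member probe sets and 0 over all probe sets, because values under the noise level give a ratio of 0. In all, 4 member probe sets of 3 genes (Alox15, Lta4h and Ephx1) reached the noise level on an array, which is 26.7% of them against 22.4% of all probe sets. The other 6 measured genes had no probe set that reached it.

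**Figure D2:**
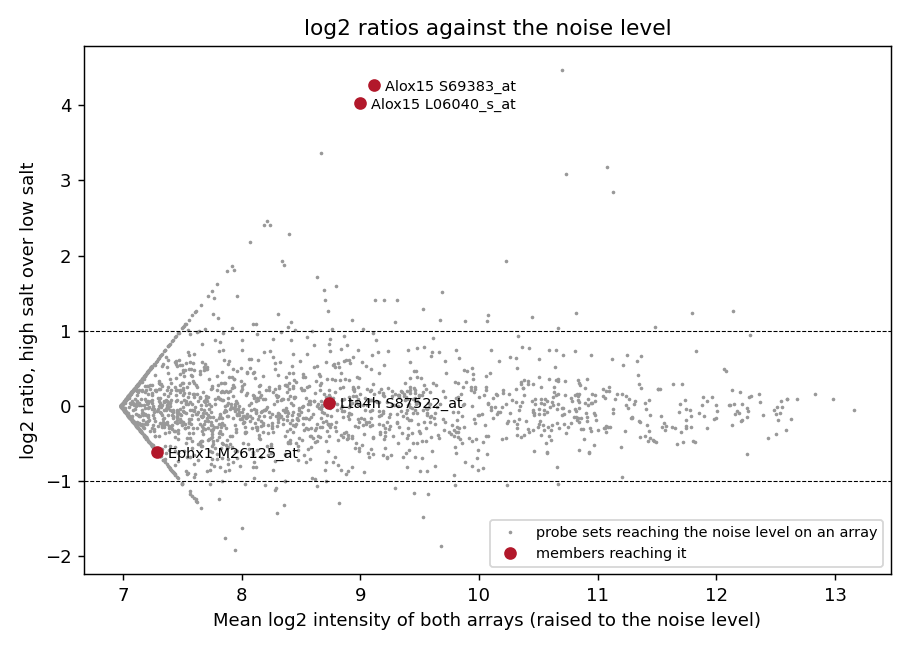
The log2 high-to-low-salt ratio against the mean log2 intensity of both arrays, values under the noise level raised to it, for the 1955 probe sets that reached it on an array (grey) and the 4 member probe sets among them (red); dashed lines mark 2-fold. The Alox15 probe sets stand at 4.27 and 4.03, Lta4h at 0.04 and Ephx1 at -0.62; points on the straight edges at the left are bounds.

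The remaining lipoxygenases gave no measured level. Alox12, the platelet type enzyme, was not measured. In the RefSeq table of the rat (assembly GRCr8) Alox12, Alox12e and Alox15 stand next to each other in this order, and Alox12 and 12-LOX are listed as other names of Alox15. L06040_s_at is of a type whose probes can match several related transcripts, while S69383_at is not. Alox5 encodes the lipoxygenase that starts leukotriene synthesis. Its probe set read 43.5 with high salt and -0.5 with low salt, both under the noise level. A difference of 44 or more in size occurred in 6.96% of the probe sets that were under the noise level on both arrays. Over all probe sets the share was 19.5%.

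Alox5ap encodes the membrane protein that presents arachidonic acid to Alox5. Its probe set X52196cds_at read 38.9 with high salt and 51.3 with low salt, and rc_AI104781_at read 26.1 with high salt and 15.4 with low salt. The probe sets went opposite ways under the noise level and give no direction.

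Lta4h, which encodes the hydrolase that turns leukotriene A4 into the neutrophil attractant leukotriene B4, was measured above the noise level on both arrays. S87522_at read 433.1 with high salt and 420 with low salt, a log2 ratio of 0.04 that is smaller than the SD of 0.22 between probe sets of a gene. Its second probe set, S87522_g_at, was at -169.4 with high salt and -389.6 with low salt. Values so far below 0 give no level of the transcript. A difference of 220.2 or more in size occurred in 0.059% of dim probe sets, this one included, and in 4.06% of all probe sets. Both its values lay further below 0 than 95% of the values below 0. The dim probe sets therefore give no matched spread for it.

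The prostaglandin genes were all under the noise level in every probe set. Ptgs1, the constitutive cyclooxygenase, read 50.1 with high salt and 41 with low salt. Ptgs2, the inducible cyclooxygenase, read 44.1 with high salt and 49.1 with low salt by L25925_s_at, and 34.5 with high salt and 24.7 with low salt by S67722_s_at. These differences were smaller in size than the median or near it among dim probe sets, and the Ptgs2 probe sets went opposite ways.

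Ptgds, a prostaglandin D synthase, and Ptgfr, the receptor of prostaglandin F2-alpha, came nearer to the noise level. Ptgds read 108.1 with high salt and 39.9 with low salt. Its difference of 68.2 was reached in size by 2.82% of dim probe sets and by 13.2% of all probe sets. Ptgfr read 111.4 with high salt and 22.3 with low salt by S74898_s_at. That difference of 89.1 was reached by 1.43% of dim probe sets and by 10.1% of all probe sets. The same gene read 27.9 with high salt and 18.5 with low salt by D28581_at, and 14 with high salt and -37.5 with low salt by U26663_s_at. All 3 Ptgfr probe sets read higher with high salt, but none of their values reached 126.4, so they give no fold and no direction. Of the 11 member probe sets under the noise level on both arrays, 9 read higher with high salt and 2 lower, and 47.4% of all such probe sets on the array read higher. Such values have no reliable order, and several of the 11 belong to the same gene, so the count gives no direction for the pathway.

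Ephx1, which encodes microsomal epoxide hydrolase, an enzyme of drug and lipid epoxide breakdown, was the member with a lower value past the noise level. M26125_at read 75.3 in the high-salt heart, under the noise level, and 194.1 in the low-salt heart, above it. It was therefore at least 1.54-fold lower with high salt. Such a bound was not rare: of 211 probe sets above the noise level in the low-salt heart alone, 20.4% had one as large. Ephx2, the soluble epoxide hydrolase, which opens the epoxides of arachidonic acid, lay under the noise level in all 4 probe sets; the highest low-salt reading was that of X65083cds_at, at 51.8 with high salt and 96.8 with low salt.

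**Figure D3:**
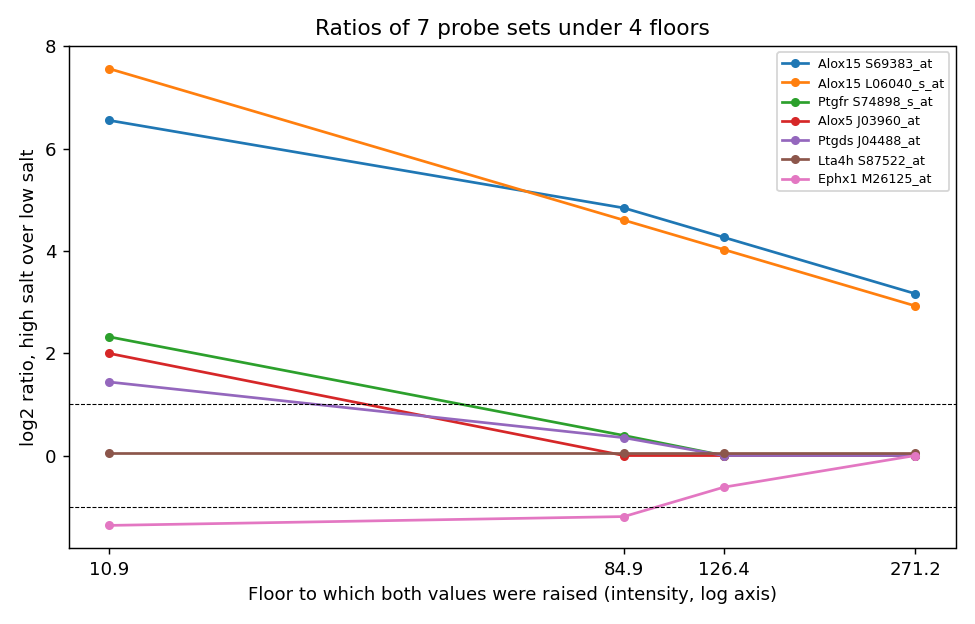
The log2 high-to-low-salt ratio for the 7 member probe sets that reached the noise level or passed 2-fold against the lowest floor, with both values raised to 4 floors (10.9, 84.9, 126.4 and 271.2, log axis); dashed lines mark 2-fold. The Alox15 lines stay above 2-fold at each floor, Lta4h stays at 0.04, Ephx1 passes 2-fold at 10.9 and 84.9 alone, and Ptgfr, Alox5 and Ptgds do so at 10.9 alone.

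The number of members past 2-fold changed with the floor. Against 10.9, the 40th percentile of all values, 5 member probe sets were at least 2-fold higher and 1 was lower, where 4.75% and 4.98% of all probe sets were. Those higher were the Alox15 pair, S74898_s_at of Ptgfr with a log2 ratio of 2.32, Alox5 with a bound of 3.99-fold and Ptgds with a log2 ratio of 1.44, and the lower was Ephx1 with -1.37. Of these, the Alox15 pair alone remained past 2-fold at 126.4 and at 271.2, the 99th percentile of the size of values below 0, where the bounds were 8.97-fold and 7.60-fold.

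Promoter sequences are shown for Lta4h and Ephx1, the members besides Alox15 with a measured level; 8 of the 10 members matched the promoter table, and Alox15 and Alox5ap had no entry. The sequences are those of RefSeq (GRCr8), on the strand of the gene, from 250 to 26 bases before an annotated start. Ephx1 has 2 annotated starts, which its probe set does not distinguish. Capitals mark matches, on either strand, to 4 motifs picked after the sequences were seen: the TATA box as TATAAA, the GC box as GGGCGG, the CCAAT box by its name, and the AP-1 motif as TGAGTCA.
Lta4h, chr7:29856621-29856845, plus strand: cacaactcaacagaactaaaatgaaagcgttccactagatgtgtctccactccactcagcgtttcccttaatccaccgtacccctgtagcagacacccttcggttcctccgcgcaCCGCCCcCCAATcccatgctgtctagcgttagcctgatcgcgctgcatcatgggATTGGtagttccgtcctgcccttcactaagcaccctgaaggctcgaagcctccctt
Ephx1, chr13:95263143-95263367, minus strand: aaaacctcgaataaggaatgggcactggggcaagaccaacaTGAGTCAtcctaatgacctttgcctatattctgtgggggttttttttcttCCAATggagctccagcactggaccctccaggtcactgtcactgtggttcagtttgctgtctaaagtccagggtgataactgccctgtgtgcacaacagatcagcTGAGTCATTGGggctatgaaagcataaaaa
Ephx1, chr13:95275878-95276102, minus strand: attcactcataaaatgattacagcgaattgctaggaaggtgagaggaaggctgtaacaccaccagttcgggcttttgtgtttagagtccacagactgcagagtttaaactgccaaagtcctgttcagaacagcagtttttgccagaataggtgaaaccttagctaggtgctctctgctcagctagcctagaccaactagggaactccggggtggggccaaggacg
The Lta4h window held a GC box match 135 bases before the start and CCAAT box matches at 128 and 81 bases, and no TATA box or AP-1 match. The first Ephx1 window held AP-1 matches at 209 and 55 bases before the start and CCAAT box matches at 159 and 49 bases, the last overlapping the nearer AP-1 match at its edge. The second held none of the 4. Over 33469 windows of the same length, 31.7% held a CCAAT box match, 27.9% a GC box match, 11.6% a TATA box match and 3.69% an AP-1 match. The windows stop 26 bases before the start, so a match that lies or ends nearer to the start, such as a TATA box, was not read. A match is a description of the letters.

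Genes around the pathway were read from 3 lists, chosen with earlier results of these data known. Of 107 listed genes, 73 were measured and 12 reached the noise level on an array, which is 16.4% of them against 25.7% of all genes. None of the 73 was at least 2-fold higher or lower, where 0.908% of all 4736 genes were higher and 0.486% lower, and the median log2 ratio was 0 in the lists and over all genes.

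Among 39 other eicosanoid genes, 6 reached the noise level, 4 with a ratio above 1 and 2 below. Of these, Cbr1 reached it with low salt alone, which fixed its direction. Ptgis, the prostacyclin synthase, had the largest ratio, at 238.8 with high salt and 148.7 with low salt (1.61-fold). The glutathione peroxidases that reduce lipid hydroperoxides were also on the higher side, with Gpx1 at 5088.6 with high salt and 3698.6 with low salt and Gpx4 at 1440.2 with high salt and 1218.2 with low salt. Of the other Gpx1 probe sets, X07365_s_at read 3153.1 with high salt and 2691 with low salt, and M21210_i_at was below 0 on both arrays. Cbr1, a carbonyl reductase that acts on prostaglandins, read 106.2 with high salt and 185 with low salt. Its other probe set lay under the noise level on both arrays. Cyp4f6, of the P450 family that adds a hydroxyl group to fatty acids, read 208.9 with high salt and 169.3 with low salt. Pebp1, a partner protein of Alox15 in human cells, read 976.6 with high salt and 1058.8 with low salt. Pla2g4a, the cytosolic phospholipase that releases arachidonic acid, stayed just under the noise level at 123.8 with high salt and 109.3 with low salt.

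The title of the study links the enzyme with inflammation, so 25 chemokine, cytokine and adhesion genes were read beside it. Of these, 4 reached the noise level. For 3 of them, Nfkb1, Cx3cl1 and Tnfrsf1a, this was with high salt alone, so their ratios are bounds that could only lie above 1. Nfkbia alone reached it on both arrays, with a ratio below 1. Nfkbia, an inhibitor of NF-kappa-B, read 174 with high salt and 283.5 with low salt, and Nfkb1, a subunit of that factor, 172.3 with high salt and 113 with low salt. Cx3cl1 and Tnfrsf1a, a membrane chemokine and a tumour necrosis factor receptor, read 159.3 and 129.8 in the high-salt heart and 70.6 and -6.1 in the low-salt heart. The other probe sets of Cx3cl1 lay under the noise level on both arrays. Both probe sets of Ccl2, the monocyte chemoattractant, lay under the noise level, at 101.6 and 68.3 in the high-salt heart and 45.5 and 36.3 in the low-salt heart.

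Interleukin 4 and interleukin 13, which induce the human ALOX15 gene in monocytes through STAT6, were followed in a list of 9 measured genes, of which 2 reached the noise level. These were Il13 and Stat3, which reached it with high salt alone, so their ratios are bounds that could only lie above 1. Il13 read 158.6 with high salt and 93.8 with low salt, at least 1.25-fold higher. Both probe sets of Il4 were below 0 on both arrays. Stat3 read 128 with high salt and 42.2 with low salt by X91810_at, barely past the noise level. Its other probe set, rc_AI639141_at, read 18.6 with high salt and 24.1 with low salt. Il4r read 86.1 with high salt and 88.9 with low salt and Stat6 40.2 with high salt and 47.9 with low salt, all under the noise level.

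Markers of the cells known to hold Alox15 or its relatives read higher on the same array in part, and their part in the Alox15 difference was not tested. Of 6 measured red cell markers, 4 were at least 2-fold higher with high salt, where 0.908% of all genes were. The other 2 did not reach the noise level on either array. Of the 4, Alas2 and the probe set that represents Slc4a1 reached it with high salt alone. Their ratios are bounds that could only lie above 1. Alas2 read 698 with high salt and 104.5 with low salt, and the globin genes Hba-a3 and Hbb read 746.9 and 6982.3 in the high-salt heart and 152.9 and 2910.5 in the low-salt heart; the probes of the Hbb set may also match related globin transcripts. Slc4a1, the anion exchanger of red cells, read 264.6 with high salt and 119.8 with low salt by rc_AA866414_at, whereas J04793_at read 168.3 with high salt and 174.8 with low salt. Its remaining probe set, rc_AA875035_at, lay under the noise level on both arrays. The summed intensity of the list was 8702 with high salt and 3322 with low salt, most of it from Hbb, and without Hbb it was 1719 with high salt and 411.8 with low salt, while the red cell membrane gene Rhag was below 0 on both arrays.

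Of 9 measured monocyte and macrophage markers, 4 reached the noise level and 1 was at least 2-fold higher, against the same 0.908% of all genes. All 4 had a ratio above 1. C1qb and Lgals3 reached the noise level with high salt alone, which fixed that direction for them. Lyz2, which encodes lysozyme, read 458.6 with high salt and 130.4 with low salt. C1qb, a complement subunit made by macrophages, read 178.1 with high salt and 97.1 with low salt by X71127_at. Its other probe set, X71127_g_at, read -11.4 with high salt and 1.1 with low salt. Lgals3, or galectin-3, read 165.3 with high salt and 66.9 with low salt. Cd14 read 149.1 with high salt and 128.7 with low salt by AF087944mRNA_s_at, and 51.8 with high salt and 41.8 with low salt by AF087943_s_at. The summed intensity of the list was 1036 with high salt and 522.2 with low salt. Most of that difference came from Lyz2, and the sum also adds values under the noise level. The defining markers Csf1r, Itgam, Ptprc and Aif1 lay under the noise level in every probe set.

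Neither of the 2 measured eosinophil markers reached the noise level: Prg2 read -51.7 with high salt and -94.3 with low salt, and Ccr3 10.1 with high salt and 5.7 with low salt. None of 7 neutrophil and none of 9 lymphocyte markers reached it. Their summed intensities, 139 and 110 in the high-salt heart and -34.3 and 121.2 in the low-salt heart, add values under the noise level and give no direction. Of 5 platelet markers Pf4 reached it, at 223.6 with high salt and 123.5 with low salt, and of 8 mast cell markers Tpsb2 did, at 138 with high salt and 131.8 with low salt. The platelet sums, 314.4 with high salt and 215.6 with low salt, differ mainly through Pf4. The mast cell sums, 164.7 with high salt and 79.5 with low salt, differ mainly through Cma1, a chymase gene with values below 0 on both arrays (-57.5 with high salt and -157.9 with low salt), and give no direction. The 12 cardiomyocyte markers summed to 58578 with high salt and 56997 with low salt. Of the 11 that reached the noise level, 4 had a ratio above 1 and 7 below. Those below included Fabp3, at 3932.1 with high salt and 6103.4 with low salt, and Ckm, at 3062.3 with high salt and 4279.7 with low salt. Nppa alone was at least 2-fold higher in its brightest probe set, at 5997.7 with high salt and 833.4 with low salt. That gap is larger than the gap between the sums. A second probe set of Myh7, the slow myosin heavy chain, X15939_i_at, was also past 2-fold, at 4125.1 with high salt and 1988 with low salt, whereas the brighter X15939_f_at read 6372 with high salt and 5980.7 with low salt.

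**Figure D4:**
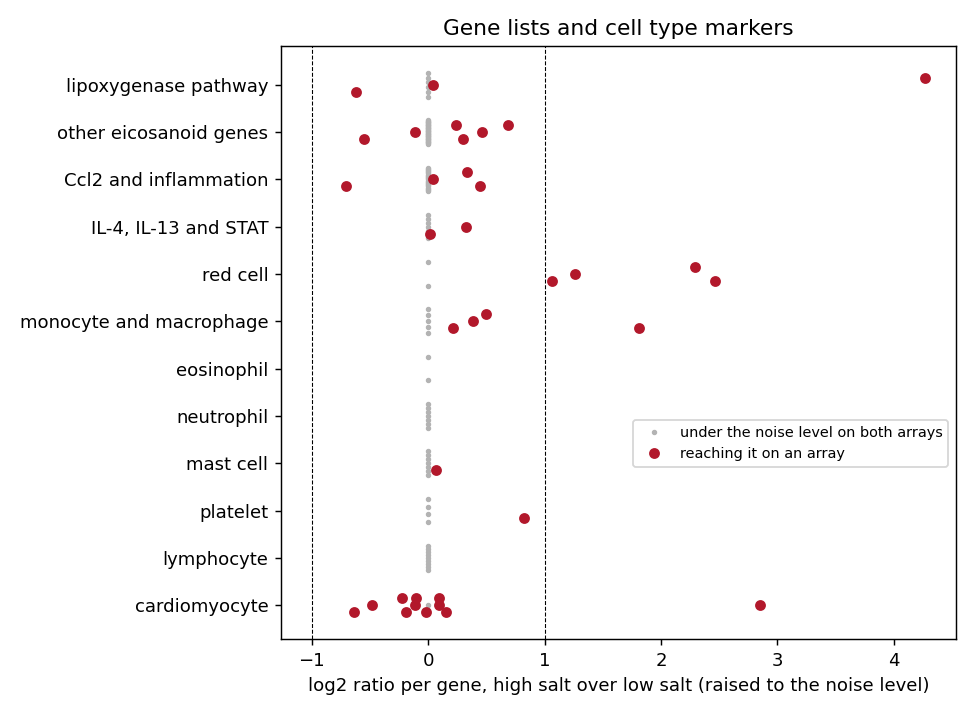
The log2 high-to-low-salt ratio per gene (brightest probe set, values under the noise level raised to it) for the lipoxygenase pathway, 3 related lists and 8 cell type marker lists; red genes reached the noise level on an array, grey ones did not, and dashed lines mark 2-fold. Alox15 stands at 4.27, the 4 red cell markers that reached the noise level between 1.07 and 2.46, and no gene of the 3 related lists lies beyond 2-fold.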

How the data were processed

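Biotin-labelled cRNA of rat heart was fragmented and hybridised to 1-colour arrays, per the labels' protocols. The authors deposited a linear intensity for each probe set on each array; its software is not given in the sources used here. Trimmed by 2%, the array means differed by 0.0030%, under the 10% limit fixed for using values as deposited. Without 59 control probe sets, 8740 were left: 7006 had 1 gene symbol in the platform annotation of 2016, 308 several and 1426 none. The number of arrays, 1 per diet, limits the precision and allows no statistical test. A gene was represented by its probe set with the highest mean log2 value, and a difference counted at 2-fold. Named genes were all members, up to 6 genes per list that reached the noise level, and the 5 genes most like Alox15; list genes under the noise level were chosen after their values were seen. The members, lists and noise level were chosen with earlier results of these data known. The ratio step was tested on simulated arrays. Alternatives were other floors, median, quantile and loess (span 0.4) scaling, 1.5-fold and 3-fold thresholds and other probe set rules. Computation used Python 3.11.15 with numpy 2.4.6, statsmodels 0.14.6, scipy 1.17.1 and pandas 2.3.3, and plots used matplotlib 3.10.9.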

Additional observations from a re-analysis of the deposited data

How the results depend on the processing

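The Alox15 log2 ratio of 4.27 stayed above 2-fold in all 7 alternatives: it was 4.84 and 3.17 with the noise level at the 90th and 99th percentile, 6.55 with the floor of 10.9, 4.03 from the other probe set, and 4.25 to 4.31 under median, quantile and loess scaling. The count of member probe sets at least 2-fold higher moved to 5 with the floor of 10.9 alone. The count at least 2-fold lower was 1, Ephx1, with that floor, with the 90th percentile and at a 1.5-fold threshold, and 0 otherwise. In the 3 related lists, 8 genes were higher and 3 lower with the floor of 10.9, and 1 higher and 1 lower at 1.5-fold, against 0 in each direction elsewhere. These moves follow from how low values are raised or where the threshold lies. No scaling moved any of these counts. The Alox15 ratio, the only member ratio past 2-fold as reported, did not change direction. Another floor cannot reverse a ratio, so only the scalings and the other probe set could have done so. No paired analysis was possible because each diet had 1 array. Signal over background limits 6 of the 9 measured genes, whose low readings do not show that they were the same in both hearts.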
